A study of Mus musculus with 3 samples.

Results

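Primed epiblast marker genes mark the state that pluripotent cells enter after implantation, and 6 of them were followed across 3 arrays of mouse embryonic stem cell RNA: Fgf5, Otx2, Pou3f1, Lef1, Sox3 and Zic2. They were chosen by name, and each was read by the probe whose RefSeq accession maps to the gene, which gave 6 probes, 1 per gene with 1 spot each, among 20284 named genes on the array. The 3 groups, with 1 array each, were male cells carrying Cas9-edited Pcgf6 that had also received Pcgf6_flag by lentivirus (labelled Pcgf6KO+ Pcgf6_flag), cells with the Cas9 edit alone (Pcgf6KO), and wildtype cells. All 3 cultures were kept in serum and leukemia inhibitory factor on mitomycin-C-inactivated mouse embryonic fibroblasts, so each RNA can hold feeder transcripts. The sources used here do not say whether each edited line is 1 clone. One source label names muscle, whereas the cell type label gives embryonic stem cells.

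Embryonic stem cells in serum with leukemia inhibitory factor resemble the naive epiblast of the preimplantation embryo, although single cells drift towards the next stage. On leaving that state, cells pass through a formative to a primed epiblast state, in which naive factors are lost while Otx2, Pou3f1 and Fgf5 are switched on and Pou5f1 and Sox2 are kept. Pcgf6 is the RING finger subunit that defines the Polycomb complex PRC1.6, known for keeping germline genes silent in embryonic stem cells. The comparisons ask how the levels of the primed markers differ between cultures with and without the Pcgf6 edit, and after the labelled re-introduction.

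Values are the scanner's processed signal, a background-subtracted spot brightness in arbitrary units, and its log2 minus each array's 75th percentile, called the scaled level. A difference of 1 in scaled level is 2-fold, which served as the fixed threshold, since 1 array per group allows no test and no p-value. Repeated spots of other probes at least as bright as the dimmest member signal set the technical error: the difference of 1 spot between arrays had an SD of 0.09 log2 units for Pcgf6KO against wildtype and of 0.10 for Pcgf6KO+ Pcgf6_flag against either of them. This spread covers the array measurement only, not variation between cultures or RNA extractions. Of 55681 probes, 60.7% were well above background on the Pcgf6KO+ Pcgf6_flag array, 66.0% on the Pcgf6KO array and 65.3% on the wildtype array. The dimmest probes to pass that test had 103, 53.4 and 52.7 units in the same order. The first array lay alone on a second slide, so in its comparisons slide and group cannot be told apart. All 8 stem cell markers checked, among them Pou5f1, Nanog, Sox2 and Zfp42, were well above background on all 3 arrays, with differences between -0.33 and 0.58.

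The edited gene was read by 1 probe. Pcgf6 had a signal of 6202 units on the Pcgf6KO+ Pcgf6_flag array, 7704 on the Pcgf6KO array and 14333 on the wildtype array. It was thus lower on both edited arrays and not higher after the labelled re-introduction. No source used here places the probe against the edited or the lentiviral sequence. The array is therefore called the library labelled Pcgf6KO+ Pcgf6_flag, and every direction given for it depends on its label.

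The markers did not move together. In Pcgf6KO, Fgf5 was 3.60-fold higher than in wildtype and Lef1 2.07-fold lower, whereas Sox3 lay at the threshold on the lower side and Otx2, Pou3f1 and Zic2 differed by less than 1.5-fold. The library labelled Pcgf6KO+ Pcgf6_flag held the lowest Sox3, Lef1 and Pou3f1 levels of the 3, and the highest Otx2 level. Only the Fgf5 level there lay between Pcgf6KO and wildtype. In a mixed culture, fewer cells of a type and less RNA per cell cannot be told apart.

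**Figure D1:**
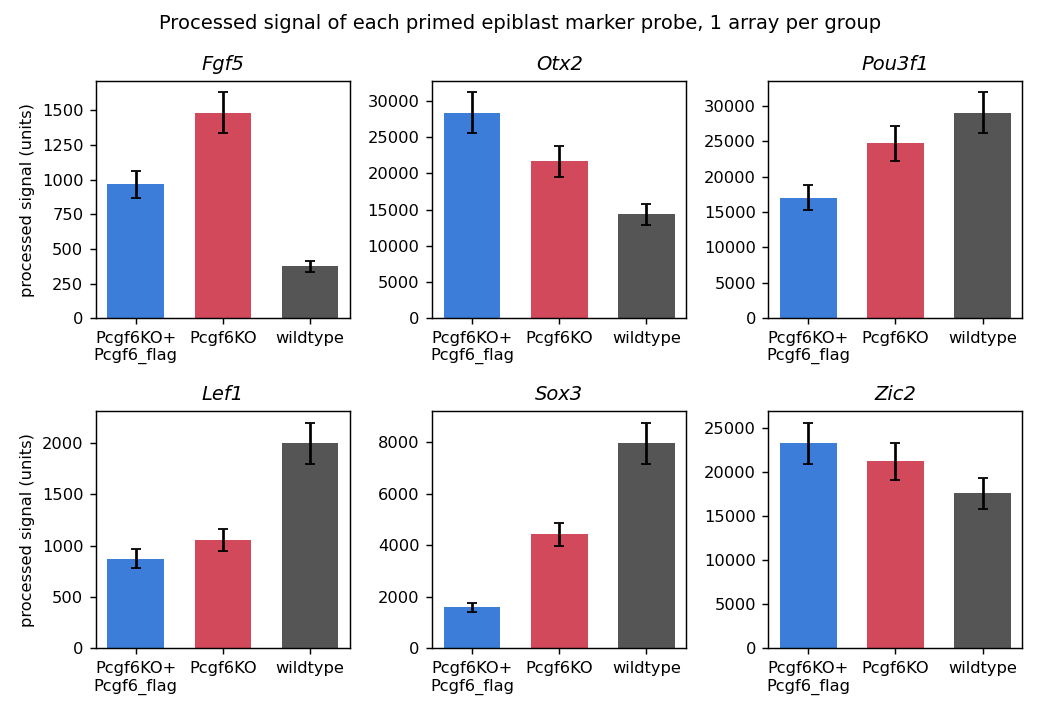
Processed signal in units (vertical axis, linear, from 0) of the 1 probe of each marker on the Pcgf6KO+ Pcgf6_flag, Pcgf6KO and wildtype arrays. Bars are single spots without scaling between arrays, and error bars are the scanner software's own error of the spot, about 10% of the signal. Fgf5 is lowest in wildtype, and Lef1 and Sox3 are highest there.

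Fgf5 encodes a secreted fibroblast growth factor and is the classical marker of the postimplantation epiblast. Its signal was 964 units in the library labelled Pcgf6KO+ Pcgf6_flag, 1481 units in Pcgf6KO and 375 units in wildtype. All 3 spots were well above background, at 9.35, 27.8 and 7.12 times the lowest such signal of their array. Fgf5 was therefore weak but measured in wildtype and highest in Pcgf6KO. The scaled level was 1.85 higher in Pcgf6KO than in wildtype, and only 198 of the 14997 genes measured on both arrays had a larger positive difference. In the library labelled Pcgf6KO+ Pcgf6_flag it was lower than in Pcgf6KO by -0.72, or 39.2% of the way back, and still 1.12 higher than in wildtype. That last difference was 0.97 with normexp background correction and 0.999 with scaling to the array median, and so just missed 2-fold there. Because Fgf5 was the marker that stood highest in Pcgf6KO, its promoter is shown. The window runs from 250 bases before to 50 bases after the RefSeq transcript start and lies at chr5:98253934-98254233 on the plus strand of GRCm38.p6:
Fgf5 promoter: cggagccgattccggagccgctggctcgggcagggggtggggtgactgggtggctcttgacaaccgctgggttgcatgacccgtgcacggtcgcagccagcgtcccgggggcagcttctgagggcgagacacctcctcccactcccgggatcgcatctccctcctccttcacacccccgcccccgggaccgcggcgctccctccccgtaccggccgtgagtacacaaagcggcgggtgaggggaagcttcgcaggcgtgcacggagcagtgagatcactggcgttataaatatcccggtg
It is printed in lower case throughout, since it held neither of the motifs searched. They were the E-box CACGTG, its own reverse complement, which partners of MAX such as MGA of PRC1.6 recognise, and the E2F core TTCCCGC on either strand, related to the site of E2F6. The window was 68.3% G and C with 29 CpG dinucleotides, against medians of 52.7% and 7 over 32817 mouse promoter windows of the same length. E-boxes occurred in 7.15% of those windows and the E2F core in 4.60%.

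Otx2 and Pou3f1 encode transcription factors that open enhancers and start the formative programme, Otx2 with a homeodomain and Pou3f1, also known as Oct6, with a POU domain. The Otx2 signal was 28377 units in the library labelled Pcgf6KO+ Pcgf6_flag, 21692 units in Pcgf6KO and 14383 units in wildtype. Both edited arrays thus lay above wildtype, by 0.74 and 0.46 in scaled level. The difference between the 2 edited arrays was 0.28, or 2.88 times the spot SD. None of these reached 2-fold. Pou3f1 ran the other way. Its signal was 17053 units in the library labelled Pcgf6KO+ Pcgf6_flag, 24740 units in Pcgf6KO and 29016 units in wildtype. The scaled difference from wildtype was -0.36 in Pcgf6KO, and in the library labelled Pcgf6KO+ Pcgf6_flag Pou3f1 was 2.01-fold lower than in wildtype, just past the threshold. That difference was short of 2-fold with normexp (-0.93), without scaling (-0.77), with the 75th percentile taken over probes measured on all arrays (-0.998) and with centring on the median gene (-0.99). Between the edited arrays Pou3f1 differed by -0.64, so Otx2 and Pou3f1 differed from wildtype in opposite directions on both.

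Zic2 encodes a zinc finger factor that binds enhancers in both naive and primed cells. Its signal was 23292 units in the library labelled Pcgf6KO+ Pcgf6_flag, 21218 units in Pcgf6KO and 17602 units in wildtype. After scaling, Zic2 was 0.17 higher in the library labelled Pcgf6KO+ Pcgf6_flag than in wildtype and 0.14 higher in Pcgf6KO than in wildtype. The edited arrays differed by 0.03, which is 0.29 times the spot SD and changed sign under 4 of 10 alternatives. Zic2 was thus level across the 3 arrays within 1.75 times the spread of repeated spots. Of its relatives, Zic5 was measured by 1 probe and Zic1 by 2 probes. Zic5 was higher than in wildtype by 0.48 in the library labelled Pcgf6KO+ Pcgf6_flag and by 0.67 in Pcgf6KO. The Zic1 probes differed by 0.21 and -0.75 between Pcgf6KO and wildtype, and the dimmer was not well above background in the library labelled Pcgf6KO+ Pcgf6_flag, so no direction is given for Zic1.

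Sox3 encodes a SOXB1 factor of the epiblast and early neural plate that can act in place of its close relative Sox2. Its signal was 1589 units in the library labelled Pcgf6KO+ Pcgf6_flag, 4430 units in Pcgf6KO and 7972 units in wildtype. The 3 arrays were thus well apart, by at least 10.5 times the spot SD for each pair. Sox3 differed by -0.98 in Pcgf6KO from wildtype, which is 1.97-fold lower and just short of the threshold; it passed 2-fold only with scaling to the array median (-1.02). The level in the library labelled Pcgf6KO+ Pcgf6_flag differed by -1.59 from Pcgf6KO and was 5.92-fold lower than in wildtype. Of 14193 genes measured in that library and wildtype, 63 had a more negative difference than Sox3. Sox2, the SOXB1 factor at the core of pluripotency, was within 0.08 of wildtype on both edited arrays. Sox1, a marker of neural progenitors, was read by 2 probes that disagreed: the one brighter on average over the arrays differed by -2.27 between Pcgf6KO and wildtype, and the other by 0.21.

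Lef1 encodes a DNA-binding partner of beta-catenin, which turns Wnt signals into transcription. Its signal was 875 units in the library labelled Pcgf6KO+ Pcgf6_flag, 1057 units in Pcgf6KO and 2001 units in wildtype. Lef1 was thus lower on both edited arrays, and wildtype stood apart from them. The scaled difference from wildtype was -1.43 in the library labelled Pcgf6KO+ Pcgf6_flag and -1.05 in Pcgf6KO, 2.70-fold and 2.07-fold lower. Without scaling between arrays the Pcgf6KO difference was -0.92, short of 2-fold. The edited arrays differed by -0.38 from each other, or 3.88 times the spot SD. The other genes of the family, Tcf7, Tcf7l1 and Tcf7l2, differed from wildtype by 0.39, 0.38 and 0.40 in the library labelled Pcgf6KO+ Pcgf6_flag and by 0.32, -0.01 and -0.13 in Pcgf6KO, each on its brightest probe. One of the 3 Tcf7l2 probes ran the other way, with -0.33 in the library labelled Pcgf6KO+ Pcgf6_flag and 0.34 in Pcgf6KO. Lef1 has 4 promoter windows in the RefSeq table. The most upstream, at chr3:131110047-131110346 on the plus strand of GRCm38.p6, and the 1 window with an E-box, at chr3:131156044-131156343, are shown because Lef1 had the most negative difference of the 6 in Pcgf6KO. Capitals mark the E-box, which begins at position -79 from that transcript start:
Lef1 upstream promoter: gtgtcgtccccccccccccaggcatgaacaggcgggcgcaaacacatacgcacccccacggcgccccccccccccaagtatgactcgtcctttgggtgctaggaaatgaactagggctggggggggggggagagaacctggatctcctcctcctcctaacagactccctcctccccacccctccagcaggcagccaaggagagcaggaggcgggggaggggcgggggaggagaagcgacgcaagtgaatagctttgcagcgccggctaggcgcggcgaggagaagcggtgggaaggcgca
Lef1 downstream promoter: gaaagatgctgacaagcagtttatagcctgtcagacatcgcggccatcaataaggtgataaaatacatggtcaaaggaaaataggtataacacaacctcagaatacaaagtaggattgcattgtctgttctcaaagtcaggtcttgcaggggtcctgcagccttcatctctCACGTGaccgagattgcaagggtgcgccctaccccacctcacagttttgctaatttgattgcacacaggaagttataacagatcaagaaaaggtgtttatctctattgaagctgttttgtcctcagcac
The upstream window was 67.3% G and C with 18 CpG dinucleotides, and the downstream window 43.7% with 5. Of the 9 windows found for Fgf5, Lef1 and Otx2, 1 held an E-box and 0 held the E2F core. These matches describe letters only. Promoters of Pou3f1, Sox3 and Zic2 are not shown.

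**Figure D2:**
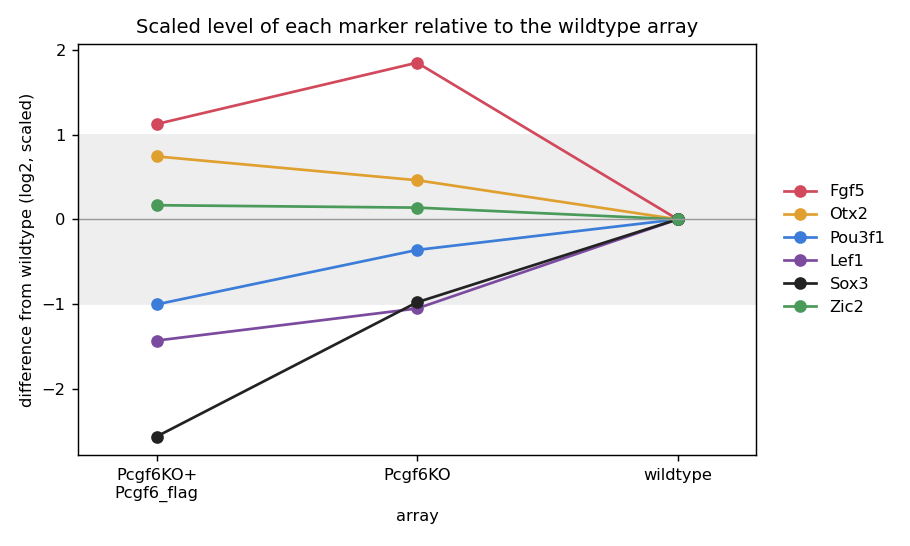
Difference of the scaled log2 level from the wildtype array (vertical axis) for the Pcgf6KO+ Pcgf6_flag, Pcgf6KO and wildtype arrays, with 1 point per array and a line joining the points of 1 gene. Grey marks differences under 2-fold; Fgf5 lies above it on both edited arrays, and Sox3, Lef1 and Pou3f1 reach or pass its lower edge in the library labelled Pcgf6KO+ Pcgf6_flag.

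Over the 6 markers, 1 was at least 2-fold higher (Fgf5) and 1 at least 2-fold lower (Lef1) in Pcgf6KO than in wildtype. The same rule took 5.80% of 14997 genes as higher and 2.81% as lower, or 2.97% and 1.66% of those at least as bright as the dimmest marker. The median over the markers was -0.11, beside -0.02 over all genes. Against Pcgf6KO, the library labelled Pcgf6KO+ Pcgf6_flag had 0 markers 2-fold higher and 1 lower (Sox3), where 5.40% and 8.37% of 14241 genes passed, or 2.65% and 5.95% of the bright ones. The marker median was -0.51 and that of all genes 0.03. In the same library against wildtype, 1 was higher (Fgf5) and 3 were lower (Pou3f1, Lef1 and Sox3), where 4.90% and 4.81% of 14193 genes passed, or 2.15% and 3.44% of the bright ones. The medians were -0.42 and -0.02. These comparisons share arrays, and 6 genes chosen with earlier results known give no more than a description.

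Across the 3 arrays, 4 of 6 markers spanned at least 2-fold between their highest and lowest level, against 18.4% of 14152 genes. In 5 of 6 the Pcgf6KO level lay between the other arrays, an order found in 30.7% of all genes. Pou3f1, Lef1 and Sox3 had wildtype highest and the library labelled Pcgf6KO+ Pcgf6_flag lowest, as did 16.1% of genes. Otx2 and Zic2 had the reverse order, as did 14.6%, and Fgf5 alone had Pcgf6KO highest with wildtype lowest, as did 11.1%. For all but Fgf5, the library labelled Pcgf6KO+ Pcgf6_flag therefore stood further from wildtype than Pcgf6KO did, although for Zic2 the edited arrays differed by less than the spot SD.

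**Figure D3:**
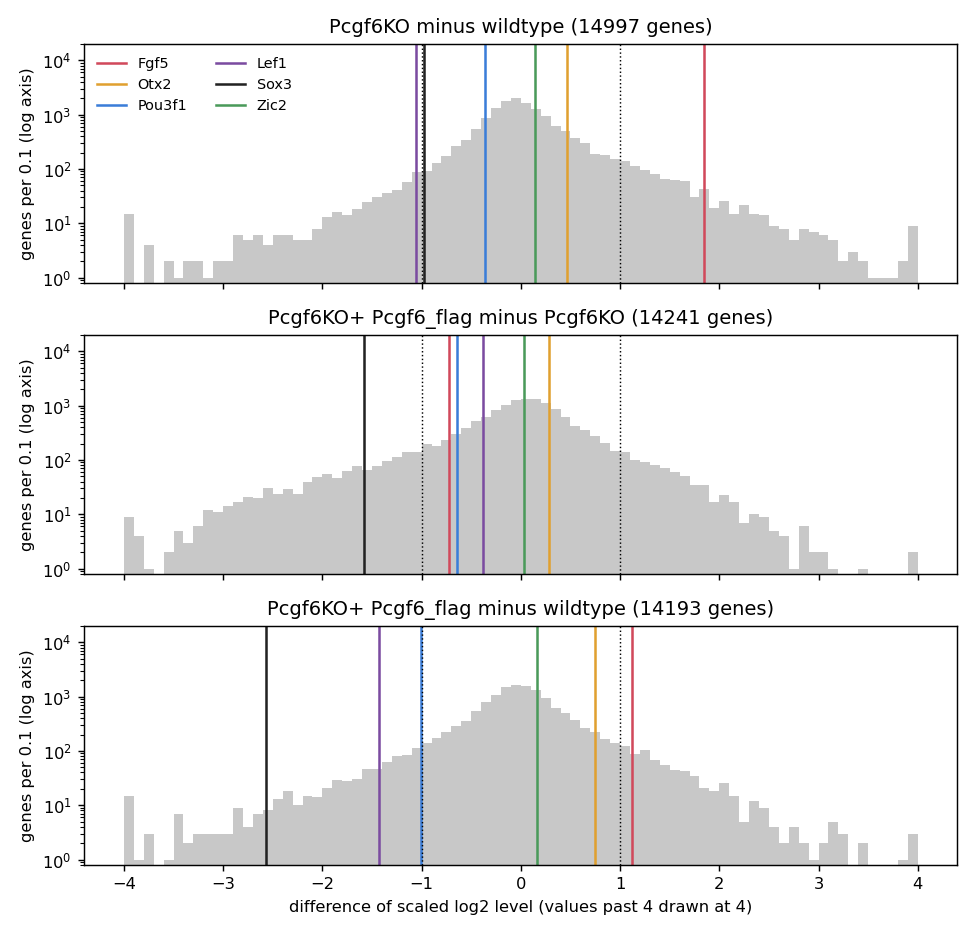
Number of genes (vertical log axis) by difference of scaled log2 level (horizontal axis, in steps of 0.1) for the 3 comparisons, from top to bottom Pcgf6KO minus wildtype, Pcgf6KO+ Pcgf6_flag minus Pcgf6KO and Pcgf6KO+ Pcgf6_flag minus wildtype. Coloured lines are the 6 markers and dotted lines 2-fold. Sox3 lies past 2-fold on the lower side in the middle panel and far in the lower tail of the bottom panel. Zic2 lies near the peak of all 3.

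The likeness of patterns was measured as the root-mean-square distance between the 3 scaled levels after each gene was centred on its own mean, over 14146 other genes measured on all 3 arrays. Fgf5 had only 5 genes within the spot SD, the nearest being Kit, the stem cell factor receptor, at 0.04, the clock gene Arntl2 at 0.04 and Cpn1 at 0.07. Kit was 1.88 higher in Pcgf6KO and 1.05 higher in the library labelled Pcgf6KO+ Pcgf6_flag, each against wildtype. Sox3 had 2 such genes, and its nearest were Glyatl3 at 0.05 and the matrix genes Thbs1 at 0.09 and Timp2 at 0.10. Lef1 had 20, and the second nearest after Atp1a4 was Pcgf6 itself, at 0.02, with Adam32 next. Pou3f1 had 113, led by Sbspon, Apobr and Ppp1r1a, and Otx2 had 218, with Msra and Abhd18 among its 3 nearest. Zic2 was like 2065 genes, led by Tigd3, Siglech and Rrp12. With 3 arrays, such likeness is a description of these levels. Among the markers the closest pairs were Otx2 with Zic2, at 0.24, and Pou3f1 with Lef1, at 0.28, and the farthest was Fgf5 with Sox3, at 1.58.

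The other genes of the formative and primed states were read against the same share of all genes, 5.80% higher and 2.81% lower in Pcgf6KO than in wildtype. Of 29 listed genes, 28 were measured in both Pcgf6KO and wildtype, where 1 was 2-fold higher, the ephrin receptor gene Ephb1, and 0 were lower. The list median was -0.08. Below the threshold, the Wnt receptor gene Fzd2 differed by 0.99. The list count is near the share of all genes. Between the library labelled Pcgf6KO+ Pcgf6_flag and Pcgf6KO, 1 of 27 was 2-fold higher, the homeobox gene Nkx1-2 with 1.30 on its brighter probe and 0.69 on the other, where 5.40% of all genes were higher and 8.37% lower. The 3 lower were the ligand gene Wnt8a, Epha1 with -1.41 and Fzd2 with -1.37, and Ephb1, not well above background there, was at least 7.37-fold lower. Against wildtype, 0 of 27 were higher in that library and 2 lower, Wnt8a and Epha1, with Ephb1 at least 3.43-fold lower. The shares of all genes there were 4.90% higher and 4.81% lower. The list median in this comparison was -0.35 with bounds included.

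Naive pluripotency genes, which the primed state loses, were counted in the same way, and their counts too lie near the shares of all genes given above. In Pcgf6KO, 1 of 22 was 2-fold lower than in wildtype, Gbx2, and 0 were higher, with a median of -0.14. Against wildtype, the library labelled Pcgf6KO+ Pcgf6_flag had 2 higher, the naive regulator Prdm14 with 1.66 and the Akt cofactor gene Tcl1 with 1.15, and 1 was lower, Gbx2 with -1.09. Between the edited arrays 0 of 22 passed in either direction and the median was 0.26. Of the core factors Pou5f1, Sox2, Nanog, Sall4 and Lin28a, 0 of 5 passed 2-fold in any comparison.

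The FGF pathway list holds other ligands, receptors and targets of the signal to which Fgf5 belongs. Of 20 ligand, receptor and target genes measured in Pcgf6KO and wildtype, 0 were 2-fold higher and 0 lower, with a median of -0.08. At the shares of all genes, 5.80% and 2.81%, a count of 0 among 20 genes lies near the background and is no result about the pathway. The largest differences lay on both sides: the ETS factor gene Etv1 with -0.63, the feedback phosphatase gene Dusp4 with 0.62, the ligand gene Fgf15 with -0.59 and the receptor gene Fgfr2 with 0.56. Against wildtype, 1 of 20 was higher in the library labelled Pcgf6KO+ Pcgf6_flag, the immediate early gene Egr1 with 1.18. In the same comparison 2 were lower, Etv1 with -1.32 and the ERK inhibitor gene Spred1 with -1.17. These counts lie near the shares of all genes, 4.90% higher and 4.81% lower. Against Pcgf6KO, Egr1 was higher by 1.22 and Spred1 lower by -1.07, where 5.40% of all genes were higher and 8.37% lower.

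In Pcgf6KO, 3 genes of the Wnt list were higher than in wildtype while Lef1 was lower. Of 20 measured on both arrays, 3 were 2-fold higher than in wildtype and 0 lower, beside 5.80% and 2.81% of all genes. The 3 were the ligand gene Wnt3 with 2.02, T, which encodes the mesoderm factor brachyury, with 1.07, and the receptor-removing ligase gene Rnf43 with 1.05. Below the threshold, Sp5 and Axin2, direct targets in many tissues, were at 0.94 and 0.80, and Notum at -0.97. The median was 0.26 with bounds included. Against Pcgf6KO, 5 of 18 were lower in the library labelled Pcgf6KO+ Pcgf6_flag, Wnt3 among them, and 1, Notum, was higher. Over all genes in this comparison, 8.37% were lower and 5.40% higher. T differed by -2.06, Sp5 by -1.86, Rnf43 by -1.50 and Axin2 by -1.36, and Lgr5 and Dkk1, not well above background there, were at least 4.60-fold and 2.07-fold lower. Against wildtype, Wnt3 was lower by -1.15 and Lgr5 at least 3.22-fold lower, and 0 were higher. The shares of all genes were 4.81% lower and 4.90% higher. Axin2, Sp5, T and Rnf43 thus stood highest in Pcgf6KO while Lef1 stood highest in wildtype. The list did not move as a whole. Wnt5a, Ccnd1 and Cdx1 also stood highest in wildtype, with -0.995, -0.14 and -0.06 in Pcgf6KO. The Cdx1 difference was smaller than the spot SD of 0.09 and ranged from -0.14 to 0.07 under the alternatives. Notum stood highest in the library labelled Pcgf6KO+ Pcgf6_flag.

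Markers of other cells that such a culture could hold also differed. Of the fibroblast list, 25 of 26 genes were on the array and 24 were measured on at least 1 array. Their summed scaled signal, in multiples of each array's 75th percentile, was 27.2 in the library labelled Pcgf6KO+ Pcgf6_flag, 42.5 in Pcgf6KO and 85.7 in wildtype. Bright genes weigh most in this sum, such as Sparc, which differed by only -0.14 between that library and wildtype. The list median against wildtype, with bounds included, was -2.92 in that library and -1.19 in Pcgf6KO. Of those measured on both arrays, 11 of 21 were 2-fold lower in Pcgf6KO than in wildtype and 0 higher, with 3 more lower as bounds. Over all genes, 2.81% were lower and 5.80% higher. Against wildtype, 15 of 17 were lower in the library labelled Pcgf6KO+ Pcgf6_flag and 0 higher, with 6 more lower as bounds. Against Pcgf6KO, 11 of 17 were lower in that library and 0 higher, with 1 more as a bound. The shares of all genes were 4.81% lower and 4.90% higher against wildtype, and 8.37% and 5.40% against Pcgf6KO. Prrx1, Postn and Fap were not well above background on either edited array. The fibroblast list thus had the same order of arrays as Sox3, Lef1 and Pou3f1, the opposite order to Otx2, and its part in these differences was not tested. Among 17 early neural genes, 2 of 15 measured on both arrays were 2-fold lower in Pcgf6KO than in wildtype and 0 were higher. The shares of all genes were 2.81% and 5.80%. The 2 lower were Sox1 on its brighter probe and Ncam1 with -1.12. Against wildtype, 4 of 14 were higher in the library labelled Pcgf6KO+ Pcgf6_flag, among them Hes5 with 1.95, Six3 with 1.26 and Rax with 1.20. Over all genes, 4.90% were higher and 4.81% lower. The 3 neural genes lower in that library included Sox1 with -2.95 on the same probe and Lhx2 with -1.45. The other Sox1 probe was at 2.32 there, so no direction is given for Sox1. Of 12 mesendoderm genes measured in Pcgf6KO and wildtype, T was 2-fold higher and 0 were lower, with Mesp1 at least 2.18-fold higher. These counts lie near the shares of all genes, 5.80% higher and 2.81% lower. Against wildtype, the library labelled Pcgf6KO+ Pcgf6_flag had 3 of 10 higher, Lhx1 with 1.85, and Kdr with 1.23 and Tbx6 with 1.01 on their brighter probes. In the same comparison 2 were lower, Cdx2 with -2.31 and Gata6 with -1.31, with 2 more lower as bounds. The shares of all genes were 4.90% higher and 4.81% lower. The other Kdr probe ran the opposite way with -0.37, and the other Tbx6 probe was at 0.81, so the Kdr direction rests on the choice of probe.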

How the data were processed

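RNA of 3 cultures was labelled with Cy3 and hybridised to 1-colour Agilent arrays. Per the file headers, the deposited scanner output is spot intensity on a linear scale from Agilent Feature Extraction 11.5.1.1, while the submitters' processing notes name 10.7. The processed signal is background-subtracted and not scaled between arrays. For 55215 of 55215 single-spot probes per array, the deposited value table held this signal within a relative tolerance of 1e-06, so it is linear, unscaled and uncentred, with column medians of 313, 273 and 243 for the Pcgf6KO+ Pcgf6_flag, Pcgf6KO and wildtype arrays. Control spots and 192, 158 and 141 outlier spots on those arrays were left out, and 0 non-control spots were saturated. Spots of a probe were averaged, and log2 of the mean minus the array's 75th percentile was the level. Unversioned accessions, looked up in RefSeq's gene table for GRCm38.p6, named 26762 of 55681 probes. The array design is annotated on mm9. Each gene took the value of its brightest probe that was well above background on 1 array or more, which left 16048 genes. Where it was so on only 1 of a pair, the difference is a bound, taken against either the lowest such signal of the dim array or the gene's own signal there, whichever was greater. The number of arrays limits the precision. Promoter windows came from RefSeq, GRCm38.p6.

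The genes named were the 6 markers and Pcgf6, up to 4 members per list and comparison with the largest differences, and the 3 nearest genes per marker. Some below the threshold were named after their values were seen, and some genes that the rule names are not reported here. The members and the 9 lists were chosen with earlier results of these data known. Alternatives were normexp background correction on the median spot signal by limma 3.58.1 with an offset of 50, quantile normalization, division by the median or by the 75th percentile of probes measured everywhere, the deposited table, keeping outlier spots, averaging the probes of a gene, dropping the dim-probe filter, and 1.5-fold and 3-fold thresholds. The unscaled table and centring on the median gene were added after the data were examined. Scripts ran in R 4.3.3 and in Python 3.11.15 with pandas 2.3.3 and numpy 2.4.6.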

Additional observations from a re-analysis of the deposited data

How the results depend on the processing

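Of 180 marker differences recomputed under 10 alternatives, 148 moved by no more than the SD between single spots and 32 moved by more. Of the differences past 2-fold, 0 changed sign. Each marker had 1 probe with 1 spot, well above background on every array. Averaging probes and dropping the dim-probe filter therefore could not change a marker's signal. The deposited table held the same signal for such probes, so that table and keeping outlier spots could act only through the scaling. The 148 thus include differences that were not free to move, and that count is no measure of stability. The number of markers 2-fold lower in Pcgf6KO than in wildtype was 2 with scaling to the array median and at 1.5-fold, and 0 at 3-fold and without scaling. The number 2-fold higher in the library labelled Pcgf6KO+ Pcgf6_flag than in wildtype was 0 with normexp, with scaling to the array median and at 3-fold, and 2 at 1.5-fold. The number lower there was 1 at 3-fold, and against Pcgf6KO it was 3 at 1.5-fold. The marker median for that library against Pcgf6KO was -0.41 with normexp and -0.40 without scaling. Against wildtype it was -0.54 with scaling to the array median and -0.18 without scaling, and for Pcgf6KO against wildtype it was 0.020 without scaling. The median of all genes was itself shifted without scaling, to 0.11, 0.13 and 0.22 for Pcgf6KO against wildtype, the library labelled Pcgf6KO+ Pcgf6_flag against Pcgf6KO and that library against wildtype. Scaling to the array median shifted the last to -0.14. The different values at 1.5-fold and 3-fold follow from the threshold itself. For the other alternatives the cause was not tested. List medians of the core, FGF pathway and family member genes changed sign under at least 1 alternative in all 3 comparisons. Those of the formative and primed and the mesendoderm genes did so for Pcgf6KO against wildtype, and that of the early neural genes there and between the edited arrays. Those of fibroblast, Wnt and naive genes kept their sign under all alternatives run. A fit with slide as block was not run, since 1 slide holds a single array. No paired analysis was possible because each group has 1 array. Genes called higher made up 67.3%, 39.2% and 50.5% of all calls in the 3 comparisons, 77.7%, 47.2% and 70.5% without scaling, and 39.2% of the last with scaling to the array median. Over all genes, normexp gave 597 higher and 316 lower in Pcgf6KO than in wildtype, beside 870 and 422, and without a filter on dim probes 1588 and 878. For the library labelled Pcgf6KO+ Pcgf6_flag against wildtype, 452 were higher and 535 lower with normexp, 1764 and 1509 without a filter, and 1075 and 450 without scaling, beside 696 and 682. Against Pcgf6KO they were 1961 and 2196 without a filter, beside 769 and 1192. Brightness limits Fgf5 and Lef1 most, as the dimmest of the 6.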
